A study of Mus musculus with 7 samples.

Results

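Unlisted intronic features are the intervals of an EZH2 RNA immunoprecipitation (RIP-seq) count table that the authors did not keep in their filtered list of peaks and that lie mainly in introns. A row was a member when its name was absent from the filtered list and when intron held the largest share of its bases on its own strand in the GENCODE M21 annotation of the mouse genome build mm10, with coding exon, untranslated region and noncoding exon taking precedence over intron at each base. The rule used positions and the list alone, and it found 135728 members among 303889 features, or 44.7% of the table. Members had a median length of 304 bases, from 75 to 5316 bases. All bases were intron in 110746 members, and the other 24982 also held exon bases or bases outside genes. In total 132165 members lay in exactly 1 gene on their strand, and these fell in 12871 host genes with a median of 4 members, up to 315 in Ptprg. A shorter list of the authors' peaks, here the short list, had at least 1 peak in 2460 of those host genes, which held 61006 members. The remaining 71159 members lay in genes without a short-list peak.

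The cells were male mouse embryonic stem cells of a CAST/B6 strain that carries a recombination cassette at Rosa26, grown with serum, and all 7 libraries came from cells given doxycycline for 3 days. What doxycycline induced is not given in the sources used here. RNA was precipitated with an antibody to EZH2 from 3 groups. Wild type (WT) had 3 libraries, from the parent line and from clones 20 and 44. EZH2 KO, which lacks EZH2, had 2 libraries, from clones 12 and 19. SAFB DKO, which lacks both SAFB and SAFB2, had 2 libraries, from clones 13 and 4. Each library is thus 1 clone or line, and p-values measure the spread between such cultures. The series title says that the antibody also recognises SAFB, so the comparison describes which counts in the precipitate differ in cells without each protein. All 7 libraries are precipitates, and the part of RNA levels in the cells was not tested.

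EZH2 is the catalytic subunit of Polycomb repressive complex 2 (PRC2), which methylates histone H3 and silences developmental genes in stem cells. SAFB and SAFB2 are nuclear-matrix proteins that bind RNA through an RNA recognition motif, and purine-rich repeats such as GAAGA are known to occur in RNA they bind. Introns are removed from the primary transcript in the nucleus, so intronic reads come from unspliced or partly spliced RNA, and very long introns are typical of neuronal adhesion and synaptic genes.

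The 8 stretches of 30 bases below show the transcribed strand of intronic members that were called in SAFB DKO against WT. Capitals mark the motif GAAGA, searched on the transcribed strand, and positions are of build mm10. Sequence could be read for 3107 members, those lying whole inside an exon of a GENCODE transcript outside the basic set, so these members are not a sample of all introns. The stretches were chosen after the values were seen, from the called all-intron members whose sequence held the motif, as those with the lowest and the highest fold changes, so each shows the motif by choice. The 4 members that fell were in Cyyr1, Nbea, Tfcp2 and Kyat3, and the 4 that rose were in Pfkp, Fcho2, Snrnp48 and Srsf5.
Cyyr1, fell, chr16:85543536-85543565, minus strand: atactcttaaagactatgagctatgGAAGA
Nbea, fell, chr3:55780901-55780930, minus strand: ccttttggcagctGAAGAggggctgGAAGA
Tfcp2, fell, chr15:100547255-100547284, minus strand: ttgtgctttcagaaaatacttcccaGAAGA
Kyat3, fell, chr3:142739070-142739099, plus strand: caatatataaacatgggaaatcaagGAAGA
Pfkp, rose, chr13:6595705-6595734, minus strand: ccaagggtaaaacgactagagcatgGAAGA
Fcho2, rose, chr13:98748984-98749013, minus strand: tgttcccttctcacctctgttccagGAAGA
Snrnp48, rose, chr13:38218621-38218650, plus strand: gtgaggtctaagatgccgtgtctctGAAGA
Srsf5, rose, chr12:80948551-80948580, plus strand: gggtagtatccttcaagtgggtggcGAAGA

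The motif was found in members of either direction. It was present in 4.71% of all 30-base windows of the members with sequence. Per kilobase of member, GAAGA occurred 2.56 times in the 115 members that fell in SAFB DKO, 1.70 times in the 40 that rose and 1.91 times in the 2023 not called. Its reverse complement TCTTC, which serves as a count of the same letters on the other strand, occurred 1.42, 1.95 and 1.80 times per kilobase. In EZH2 KO the 80 members that rose held 2.37 GAAGA per kilobase and the 135 that fell held 1.80. GC content was close between these sets, at 47.4% for members that fell in SAFB DKO and 47.9% for those not called. Members that fell were longer, with a median of 737 bases against 369 for those not called, and 36.5% against 22.3% lay in genes with a short-list peak, and the part of length or peaks in the motif density was not tested. The Tfcp2 member stood at 12.0, 13.6 and 10.1 CPM (read counts scaled to the size of the library) in WT, at 31.3 and 37.7 in the EZH2 KO clones and at 0.730 and 2.04 in the SAFB DKO clones. The Pfkp member stood at 19.9, 28.0 and 22.6 in WT, at 18.2 and 23.3 in the EZH2 KO clones and at 70.6 and 61.2 in the SAFB DKO clones.

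The libraries held 19024702 to 21832539 counts in WT, 7050832 and 8353603 in the EZH2 KO clones and 18738499 and 15812517 in the SAFB DKO clones. Replicates correlated over members, on log2 CPM, at 0.919 to 0.928 among the WT lines, and the pair of SAFB DKO clones at 0.885 and of EZH2 KO clones at 0.761. The EZH2 KO libraries also carry another style of file name in the table's header. No label says what that style marks, and it cannot be told apart from genotype in that group. Summed over all features, markers of embryonic stem cells, with 9 of 10 present in the table, stood at 1879 to 1988 CPM in WT, 1480 and 1650 in the EZH2 KO clones and 2316 and 2434 in the SAFB DKO clones, and the 3 groups did not overlap. Fibroblast feeder markers summed to 7.59 to 13.0 CPM, with 5 of 8 present and Col1a2, Dcn and Postn without a feature, and the groups overlapped. Markers of differentiated cells, with 5 of 8 present and Afp, Sox1 and Sox17 without a feature, summed to 9.88 to 11.7 in WT, 6.16 and 3.62 in the EZH2 KO clones and 4.97 and 7.80 in the SAFB DKO clones, so every knockout library was below every WT library. The part of these markers in the results was not tested. Introns of the targeted genes followed the labels. Safb introns summed to 153, 161 and 60.1 CPM in WT, 234 and 269 in the EZH2 KO clones and 0.775 and 0.108 in the SAFB DKO clones. Safb2 introns summed to 179, 190 and 60.5 in WT, 438 and 534 in the EZH2 KO clones and 1.05 and 0.108 in the SAFB DKO clones. WT clone 44 was the lowest WT library for both. Ezh2 introns summed to 79.7, 88.1 and 66.1 in WT, 1.65 and 0.157 in the EZH2 KO clones and 47.9 and 58.8 in the SAFB DKO clones.

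The share of all counts in unlisted introns, filtered peaks included in the total, barely moved, but its makeup did. Members took 23.3%, 23.9% and 22.8% of all counts in the WT libraries, 22.9% and 22.6% in the EZH2 KO clones and 23.9% and 23.5% in the SAFB DKO clones. The groups overlapped, and exact two-sided permutation tests over libraries gave p = 0.5 for SAFB DKO and p = 0.3 for EZH2 KO. Over counts outside the filtered list, however, members took 28.1%, 28.8% and 27.2% in WT, 30.9% and 31.9% in the EZH2 KO clones and 24.4% and 24.1% in the SAFB DKO clones. Those shares did not overlap between groups, with folds over WT of 0.865 for SAFB DKO and 1.12 for EZH2 KO (exact permutation p = 0.1 each). Members whose bases were all intron took 12.5%, 13.0% and 11.9% of counts in WT, 13.4% and 13.4% in the EZH2 KO clones and 10.3% and 10.5% in the SAFB DKO clones. Both SAFB DKO libraries were below, and both EZH2 KO libraries above, every WT library. As shares of all counts, members with other bases went the opposite way. They took 10.8%, 10.95% and 10.8% in WT, 9.55% and 9.20% in the EZH2 KO clones and 13.5% and 13.1% in the SAFB DKO clones. The fold of SAFB DKO over WT was 0.833 for all-intron members and 1.22 for members with other bases, and that of EZH2 KO over WT was 1.08 and 0.863. The exact permutation p was 0.1 for each of these comparisons but the EZH2 KO one of all-intron members, whose p was 0.2. All counts include the filtered peaks, so these shares also depend on peak counts. With CPM scaled on features outside the filtered list, the SAFB DKO log2 ratios of sums over WT were -0.49 for all-intron members and 0.07 for members with other bases. In EZH2 KO they were 0.36 and 0.04, so members with other bases barely moved on that scale. With 3 libraries against 2 the smallest p is 0.1, and with 2 against 2 it is 0.3333, so no share in this report could pass 0.05. Over the 26 shares compared by this exact permutation test, the Benjamini-Hochberg adjusted value of p = 0.1 was 0.104 for SAFB DKO and 0.124 for EZH2 KO. The exact binomial (Clopper-Pearson) 95% interval of the first WT share, 23.31% to 23.34%, covers counting error only and was far narrower than the spread between libraries. Whether fewer cells of a kind or less RNA per cell lies behind a share cannot be told apart in bulk samples.

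**Figure D1:**
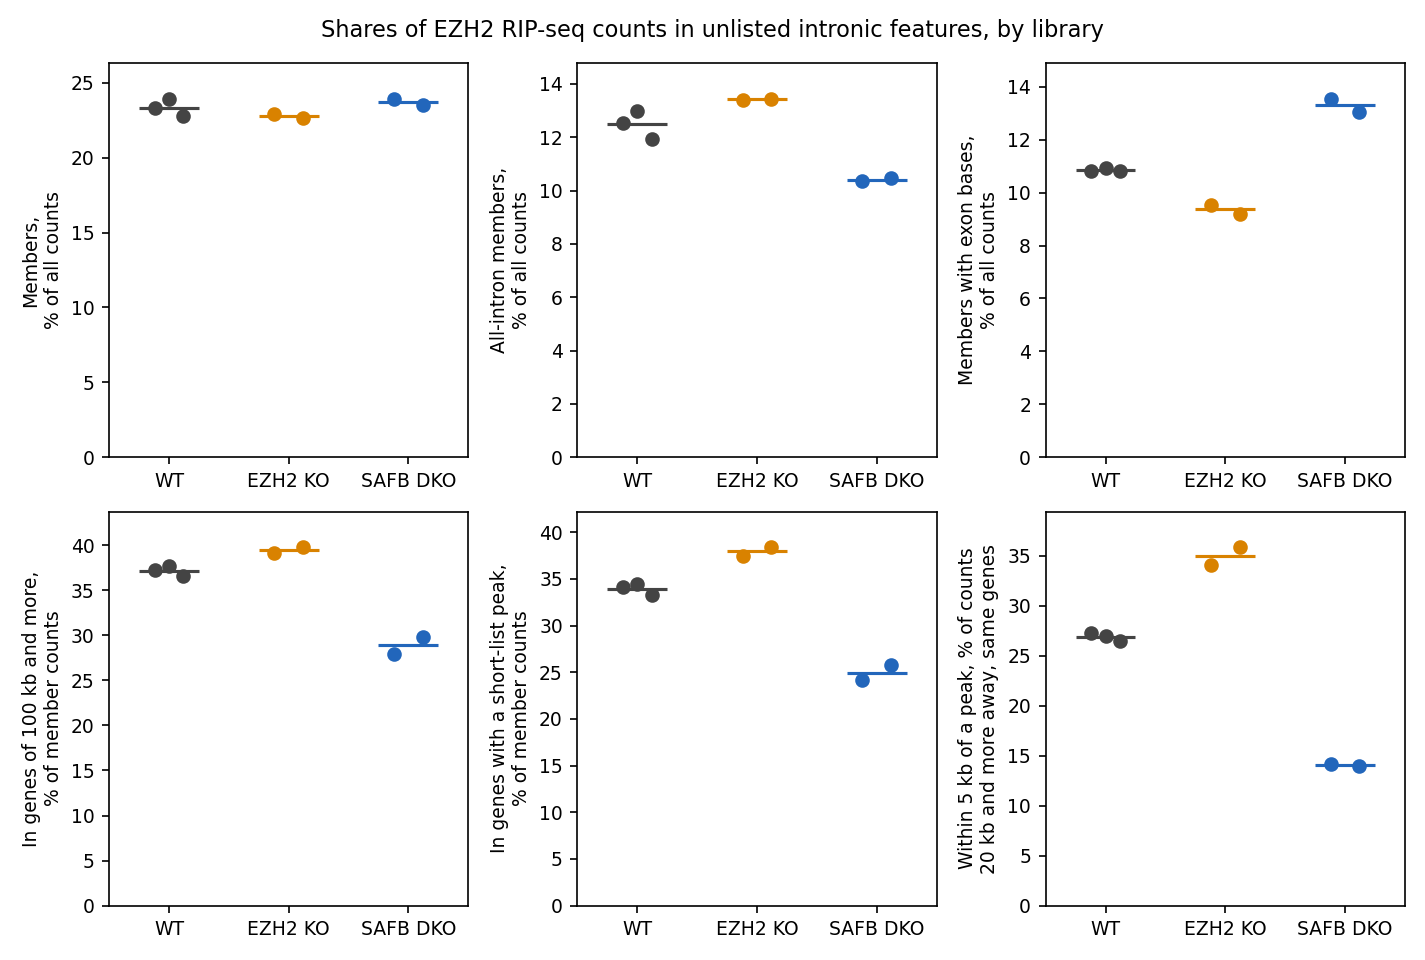
Share of counts by library for 6 quantities, with 1 point per library (3 WT, 2 EZH2 KO, 2 SAFB DKO), the group mean as a line and the y axes in percent from 0. As percent of all counts, filtered peaks included, the share of all members overlaps between groups. The all-intron share of all counts is lowest in SAFB DKO (10.3% and 10.5%), and the share of members with exon bases is highest there (13.5% and 13.1%).

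Set against exons, unlisted introns were lower in SAFB DKO and higher in EZH2 KO. Member counts came to 55.7%, 56.3% and 51.8% of unlisted coding and UTR counts in WT, 64.8% and 68.1% in the EZH2 KO clones and 47.2% and 45.1% in the SAFB DKO clones. The groups did not overlap, with folds over WT of 0.845 for SAFB DKO and 1.22 for EZH2 KO (exact permutation p = 0.1 each). Unlisted coding-exon features took 28.8%, 29.05% and 29.9% of all counts in WT, 25.2% and 23.4% in the EZH2 KO clones and 32.6% and 32.5% in the SAFB DKO clones. All counts include the filtered peaks, and the summed CPM of unlisted coding exons were not higher in SAFB DKO. Their log2 ratio of sums over WT was -0.07, beside 0.25 for unlisted UTR features. In EZH2 KO these ratios were -0.02 and -0.19. The part of exon reads in the members with exon bases was not tested. At the edge of the rule, the 5706 tested members with under 60% intron had a median log2 fold change of 0.34 in SAFB DKO against WT, beside 0.39 for the 6240 tested coding-exon features with over 40% intron. The same medians in EZH2 KO were -0.64 and -0.76. The 6587 members that are exonic in the comprehensive annotation, which holds transcripts beyond the basic set, went with exons in part. Of these, the 958 tested coding ones had medians of 0.43 for SAFB DKO and -0.69 for EZH2 KO, the 440 tested UTR ones 0.14 and -0.28, and the 3839 tested noncoding-exon ones 0.10 and -0.31.

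Feature by feature, 85809 members (63.2%) passed the low-count filter and were tested, and 49919 did not. Of those tested, 16670 reached the minimum level in fewer than 2 knockout libraries and so passed only through the WT libraries, which favours lower values in the knockouts. A feature was called at an adjusted p under 0.05 by edgeR's quasi-likelihood test over all 192964 tested features. In SAFB DKO against WT, 8619 members (10.04%) fell and 908 (1.06%) rose, beside 17.4% and 2.26% of all features. In EZH2 KO against WT, 5529 members (6.44%) fell and 4849 (5.65%) rose, beside 8.07% and 7.5% of all features. Between the knockouts, in the same fit of all 7 libraries, 14148 members were lower and 11081 higher in SAFB DKO than in EZH2 KO. These were 16.5% and 12.9% of members, beside 23.3% and 16.6% of all features. WT libraries enter that fit through the filter, the scaling and the spread, and a fit of the knockout groups alone called fewer members. The shares of members called were thus below those of the whole table in each direction, and their medians were close to those of all features, at -0.16 against -0.17 for SAFB DKO and -0.23 against -0.21 for EZH2 KO. For contrast, the short-list peaks in introns had medians of -3.33 and 0.97. That list was made from WT libraries.

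All-intron members and members with other bases parted here too. In SAFB DKO, 7274 of 64686 tested all-intron members fell and 123 rose, with a median of -0.31, and 1345 of 21123 members with other bases fell and 785 rose, with a median of 0.20. In EZH2 KO, 3126 all-intron members fell and 3712 rose, with a median of -0.15, and 2403 with other bases fell and 1137 rose, with a median of -0.44. The summed counts of all-intron members, unlike their median, were higher in EZH2 KO, with a log2 ratio of sums of 0.36. Members below 0.5 CPM had lower medians in that shallow group: in genes without a short-list peak the median was -1.44 below 0.5 CPM and -0.10 at 2 or more. In all 7411 tested members had no count in either EZH2 KO library, beside 1265 in SAFB DKO.

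The split of calls depended on how libraries were scaled. Libraries were scaled by TMM over features outside the filtered list, which left the median of all features at -0.17 in SAFB DKO and -0.21 in EZH2 KO. TMM on every tested feature, plain column totals and size factors from DESeq2 put the SAFB DKO median at -0.09, 0.05 and 0.08, and the share of called members that rose at 14.6%, 25.4% and 26.8% in place of 9.53%. They put the EZH2 KO median at -0.34, -0.46 and -0.20 and the share that rose at 35.4%, 26.3% and 47.2% in place of 46.7%. In SAFB DKO the median of all-intron members was below 0 under all 4 scalings, from -0.31 to -0.06, and that of members with other bases above 0, from 0.20 to 0.45. Single libraries also moved the counts. The 908 risen members became 224, 263 and 384 without WT replicate 1, 2 or 3, 231 and 430 without SAFB DKO replicate 1 or 2, and 2742 and 2779 without EZH2 KO replicate 1 or 2. The 8619 fallen members became 5496 and 5522 without WT replicate 1 or 2, 5690 without SAFB DKO replicate 1, and 13438 and 13350 without EZH2 KO replicate 1 or 2. In EZH2 KO the 5529 fallen members became 1784, 1839 and 1538 without WT replicate 1, 2 or 3, and 14938 without EZH2 KO replicate 2, and the 4849 risen members became 2448, 2655 and 2202 without each WT library.

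Gene length set the members apart in SAFB DKO. Shares of member counts by length do not depend on the scaling of libraries. Genes of 100 kb and more held 37.3%, 37.7% and 36.6% of member counts in WT, 39.1% and 39.8% in the EZH2 KO clones and 27.9% and 29.9% in the SAFB DKO clones. The 3 groups did not overlap, and the folds over WT were 0.777 for SAFB DKO and 1.06 for EZH2 KO (exact permutation p = 0.1 each, 0.3333 between the knockouts). The fold of SAFB DKO over WT fell step by step with length: 1.46 for genes under 10 kb, 1.17 for 10 to 30 kb, 1.04 for 30 to 100 kb, 0.835 for 100 to 300 kb and 0.642 for 300 kb and more. The same folds for EZH2 KO were 0.893, 0.934, 0.995, 1.07 and 1.04. Among tested members the share that fell in SAFB DKO was 9.00% in genes under 10 kb, 7.04% in genes of 30 to 100 kb and 18.4% in genes of 300 kb and more, and the share that rose was 7.11%, 1.03% and 0.104%. Over all tested features 17.4% fell and 2.26% rose, so the share that fell in the longest genes was close to that of the whole table. Median log2 fold changes went from 0.11 in the shortest genes to -0.65 in the longest. The EZH2 KO medians ran only from -0.29 to -0.19 over the 5 classes. Among all-intron members alone, the fold of SAFB DKO for genes of 100 kb and more was nearer to 1, at 0.868, and that of EZH2 KO was 0.990.

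Introns of genes with a short-list peak lost share in SAFB DKO and gained it in EZH2 KO. These genes held 34.1%, 34.5% and 33.3% of member counts in WT, 37.5% and 38.4% in the EZH2 KO clones and 24.2% and 25.7% in the SAFB DKO clones. No group overlapped another, and the folds over WT were 0.735 and 1.12 (exact permutation p = 0.1 each). The short list was made from WT libraries, so its genes are tied to WT level. Genes with a short-list peak were also longer, with a median span of 93799 bases against 25388. Within every length class, however, the share in such genes was lower in both SAFB DKO libraries and higher in both EZH2 KO libraries than in each WT library. Under 10 kb it was 1.67%, 1.70% and 1.49% in WT, 3.40% and 3.38% in the EZH2 KO clones and 0.487% and 0.4902% in the SAFB DKO clones, over 62 members. Between 30 and 100 kb it was 19.0%, 19.1% and 18.9% in WT, 21.9% and 22.2% in the EZH2 KO clones and 15.8% and 16.2% in the SAFB DKO clones. In genes of 300 kb and more, where 20468 of 22720 members had such a peak in their gene, the folds were only 0.988 and 1.007.

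Called members parted the same way between genes with and without a peak, though not beyond the shares of the whole table. In SAFB DKO 15.0% of tested members in genes with a short-list peak fell and 0.222% rose, against 6.24% and 1.61% in genes without. Over all tested features 17.4% fell and 2.26% rose. The median log2 fold changes of members in genes with and without a peak were -0.43 and -0.01. In EZH2 KO 5.01% fell and 6.29% rose in genes with a peak, against 7.53% and 5.01% without, with medians of -0.13 and -0.32. Over all features 8.07% fell and 7.5% rose there. The SAFB DKO median went from -0.01 with no short-list peak in the gene to -0.25 with 1 peak, -0.43 with 2 to 3, -0.62 with 4 to 9 and -0.73 with 10 or more. The EZH2 KO medians over the same steps were -0.32, -0.14, -0.11, -0.12 and -0.20, with no such order. Genes that held a filtered peak but none of the short list lay between, at a SAFB DKO median of -0.21 beside 0.05 in genes with no filtered peak.

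**Figure D2:**
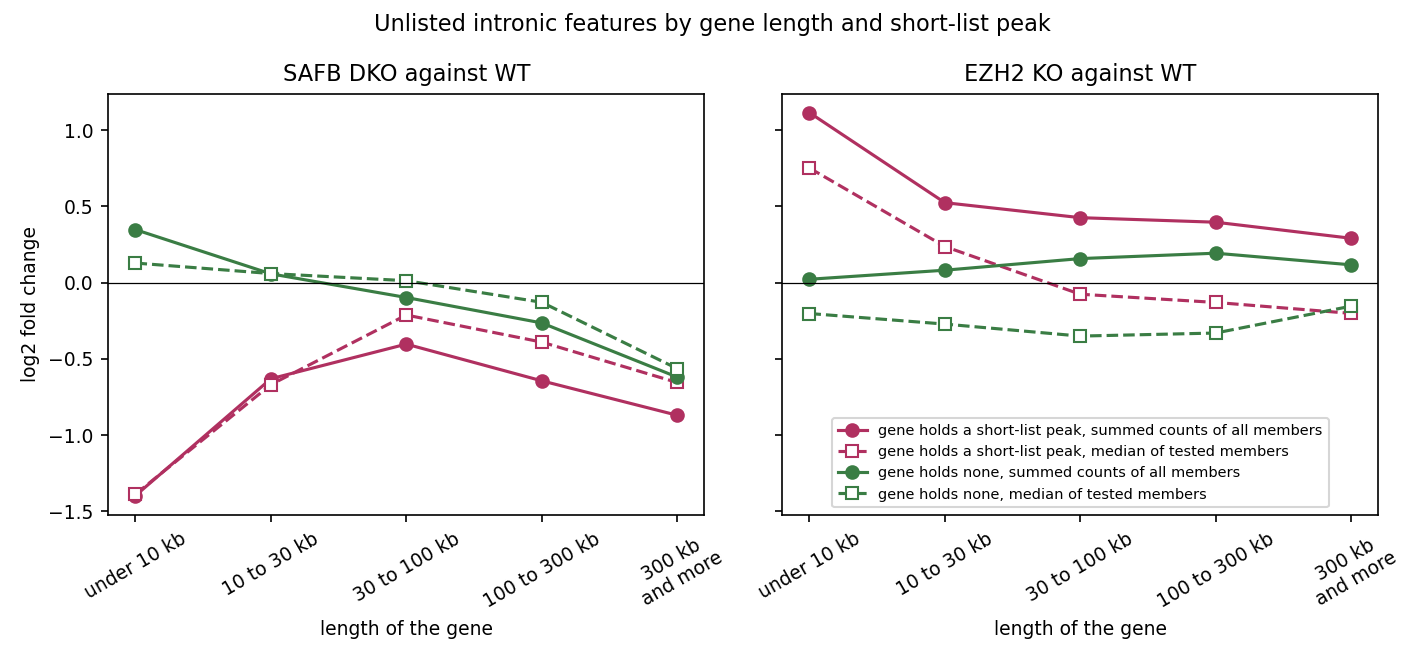
Log2 fold change against WT (y axis) by length of the host gene (x axis), for SAFB DKO on the left and EZH2 KO on the right. Filled circles are summed counts of all members and open squares are medians of tested members, in genes with (red) or without (green) a short-list peak. In SAFB DKO the medians lie below 0 in each length class of genes with a peak, from -1.39 to -0.21, and in genes without a peak they go from 0.13 to -0.56 with length.

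Within the genes that hold a short-list peak, the members next to the peak differed most. Members within 1 kb of the nearest short-list peak took 5.82%, 5.81% and 5.74% of the member counts of these genes in WT, 7.76% and 8.12% in the EZH2 KO clones and 2.23% and 2.33% in the SAFB DKO clones. Members at 1 to 5 kb took 9.32%, 9.13% and 9.11% in WT, 10.7% and 10.9% in the EZH2 KO clones and 6.36% and 6.27% in the SAFB DKO clones. The SAFB DKO folds were 0.394 and 0.688 in these classes and 1.13 at 100 kb and more, and the EZH2 KO folds were 1.37, 1.18 and 0.917. These shares are within the same libraries and genes, so scaling does not enter, and the 3 groups did not overlap in any of the 3 classes. In SAFB DKO 60.9% of tested members within 1 kb fell, 36.8% at 1 to 5 kb, 13.6% at 5 to 20 kb, 10.7% at 20 to 100 kb and 9.15% beyond. The members that rose in EZH2 KO were 18.4%, 10.9%, 6.08%, 5.16% and 5.03% of the same classes. Over all tested features 17.4% fell in SAFB DKO and 7.5% rose in EZH2 KO. Within 1 kb the sides of the peak were alike, with a SAFB DKO median of -2.35 upstream and -2.33 downstream, and an EZH2 KO median of 0.66 and 0.67. Farther away the SAFB DKO median was lower downstream in each class. It was -1.31 upstream and -1.71 downstream at 1 to 5 kb, and -0.20 and -0.64 at 100 kb and more.

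The same contrast was drawn gene by gene. In 1270 genes that had members both within 5 kb of a short-list peak and at 20 kb or more from any, near counts came to 27.3%, 26.9% and 26.4% of far counts in WT, 34.1% and 35.8% in the EZH2 KO clones and 14.1% and 13.96% in the SAFB DKO clones. The folds over WT were 0.522 and 1.30 (exact permutation p = 0.1 each), and no library of a group overlapped another group. Of the 1048 genes with tested members on both sides, the near median was the lower in 850 genes in SAFB DKO, and the higher in 705 genes in EZH2 KO. The median difference of near minus far was -1.21 for SAFB DKO and 0.50 for EZH2 KO on the log2 scale. Far members of these genes still had a median of -0.35 in SAFB DKO. Whether near members hold reads from the flank of a peak was not tested.

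**Figure D3:**
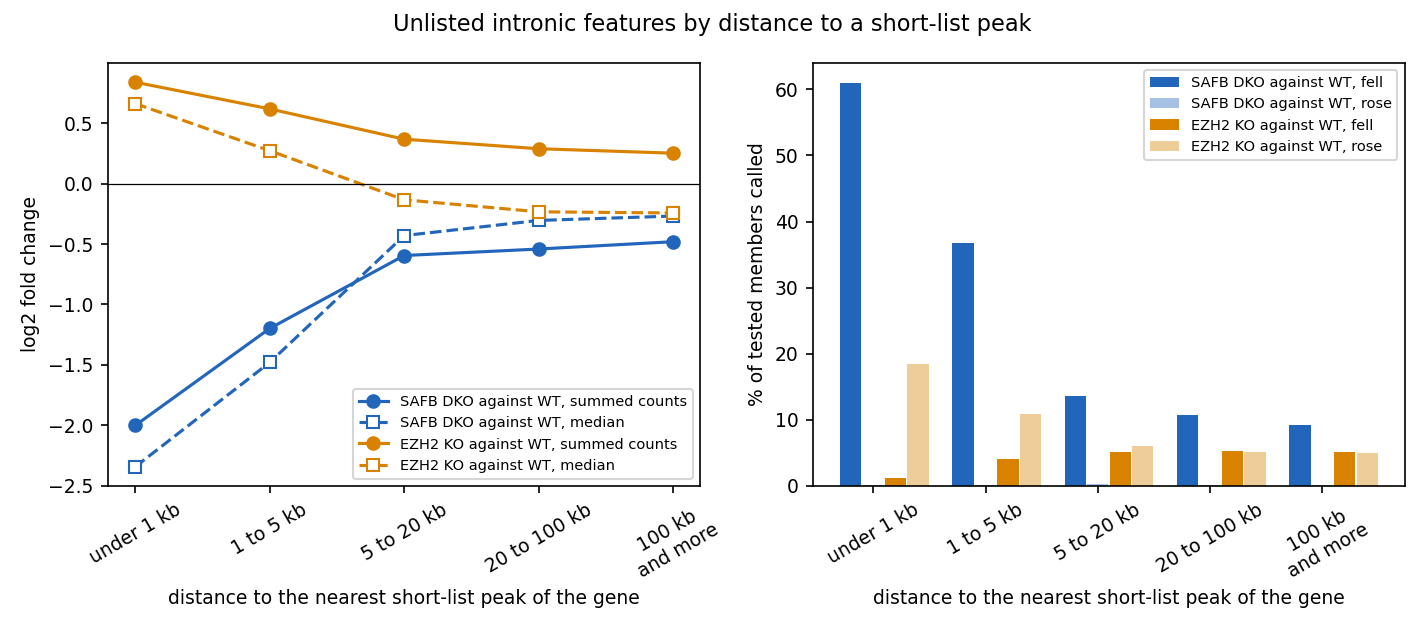
Members of genes with a short-list peak, by distance to the nearest such peak (x axis). The left panel gives log2 fold change against WT as summed counts (circles) and medians of tested members (squares), and the right panel the percent of tested members called. The SAFB DKO median rises from -2.34 within 1 kb to -0.27 at 100 kb and more, and the EZH2 KO median goes from 0.66 to -0.24.

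Calls also differed by position along the gene. Over 5 equal stretches of the gene from its start, 7.31%, 9.36%, 10.1%, 11.4% and 14.04% of tested members fell in SAFB DKO. In genes without a short-list peak these shares were 4.92%, 6.01%, 6.13%, 6.85% and 8.88%. The share that rose in SAFB DKO was also higher toward the end, at 0.538% in the first stretch and 1.81% in the last, and at 0.768% and 3.11% in genes without such a peak. For SAFB DKO the table-wide shares were 17.4% for falls and 2.26% for rises. Falls were below that level in every stretch. Rises were above theirs only in the last stretch of genes without a short-list peak. The share that fell in EZH2 KO went from 5.67% in the first stretch to 7.55% in the last, and from 5.81% to 10.3% in genes without a peak, beside 8.07% of all features.

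Summed over each gene's members, 11125 genes were tested. In SAFB DKO, 27.2% of these genes fell (3027) and 6.19% rose (689). In EZH2 KO, 16.5% fell (1838) and 17.6% rose (1959). Length set these calls apart as well: in SAFB DKO 76.8% of the 465 genes of 300 kb and more fell, against 14.2% of the 1548 genes under 10 kb. In genes with a short-list peak 54.5% fell in SAFB DKO and 26.9% rose in EZH2 KO. Without SAFB DKO replicate 1 the 689 risen genes became 230, without replicate 2 they became 376, without WT replicate 1 or 2 they became 299 and 332, and without EZH2 KO replicate 1 or 2 they became 1190 and 1199. The 1838 genes fallen in EZH2 KO became 1191, 1220 and 1212 without WT replicate 1, 2 or 3, and 2894 without EZH2 KO replicate 2.

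The genes that fell most in SAFB DKO, among those with 5 or more tested members, were all long, several of them with known roles in neurons. Syndig1, a synaptic membrane protein, stood at 11.9, 11.4 and 11.02 CPM in WT, 2.71 and 11.5 in the EZH2 KO clones and 0.319 and 0.323 in the SAFB DKO clones. Its log2 fold change in SAFB DKO was -5.12 ± 0.53 (SE, adjusted p = 3.4e-06), and 8 of its 10 tested members fell. Gabrg3, a GABA-A receptor subunit, stood at 33.4, 38.4 and 13.3 in WT, 61.5 and 107 in the EZH2 KO clones and 1.41 and 1.88 in the SAFB DKO clones. It fell in SAFB DKO (-4.11 ± 0.43, adjusted p = 4.1e-06) and rose in EZH2 KO (1.56 ± 0.32, adjusted p = 0.0015). Galnt13, a glycosyltransferase, fell by 4.28 on the log2 scale, and Phactr1, a regulator of actin and protein phosphatase 1, by 3.80. Nalcn, the sodium leak channel, stood at 10.4, 8.89 and 9.87 in WT, 6.01 and 8.18 in the EZH2 KO clones and 0.456 and 1.24 in the SAFB DKO clones. Its exonic counts did not follow, at 1.61, 0.941 and 1.72 in WT and 1.55 and 1.18 in SAFB DKO, and its intron to exon ratio fell (-3.58, adjusted p = 0.0018). Xkr4, a Kell blood group-related membrane protein gene, fell in both knockouts, from 23.7, 21.4 and 18.7 in WT to 4.21 and 3.77 in EZH2 KO and to 1.46 and 2.15 in SAFB DKO.

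Rises in SAFB DKO were smaller. Bnip3, a mitophagy receptor, stood at 5.42, 15.6 and 4.39 CPM in WT, 3.76 and 5.50 in the EZH2 KO clones and 38.0 and 23.6 in the SAFB DKO clones (1.86 ± 0.38, adjusted p = 0.0013). Pfkp, a phosphofructokinase of glycolysis, stood at 96.7, 140 and 115 in WT, 89.9 and 91.8 in the EZH2 KO clones and 327 and 289 in the SAFB DKO clones (1.39 ± 0.16, adjusted p = 8.0e-06), and 11 of its 19 tested members rose. Its exonic counts were higher alike, from 34.7, 48.0 and 40.6 to 134 and 99.3, and the ratio of intron to exon did not pass (-0.10, adjusted p = 0.67). Col9a2, a collagen chain, went from 6.62, 6.92 and 7.31 to 18.4 and 16.5. The rise of Zc3h7a rested on 1 library: its SAFB DKO values were 358 and 117 beside 85.5 to 125 in WT, and without SAFB DKO replicate 1 the adjusted p was 0.56. Mks1 and Dhrs7 were also called as risen, and without SAFB DKO replicate 1 their adjusted p was 0.17 and 0.084. Among all-intron members alone Dhrs7 was not called either (adjusted p = 0.74).

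In EZH2 KO the lowest fold changes, after Ezh2 itself, were of genes with other roles. Brcc3, a deubiquitinase, stood at 4.32, 5.36 and 3.55 CPM in WT, 0 and 0.629 in the EZH2 KO clones and 4.42 and 6.19 in the SAFB DKO clones. Kif1a, a kinesin of axonal transport, stood at 17.01, 14.6 and 13.1 in WT, 2.41 and 2.52 in the EZH2 KO clones and 9.31 and 11.1 in the SAFB DKO clones (-2.59 ± 0.29, adjusted p = 2.2e-05), and its exonic counts were lower alike, from 44.1, 41.5 and 38.1 to 8.42 and 5.66. Tmem68 and Cops2, a subunit of the COP9 signalosome, fell by 2.92 and 2.57 on the log2 scale, but among all-intron members alone Cops2 was not called (-1.12, adjusted p = 0.31). Several genes that rose in EZH2 KO fell in SAFB DKO, and each comparison uses the same 3 WT libraries. B3galnt1, a glycosyltransferase, stood at 14.3, 13.5 and 12.0 in WT, 55.0 and 68.9 in the EZH2 KO clones and 2.92 and 2.10 in the SAFB DKO clones, and the difference between the knockouts was itself called (log2 difference -4.61, adjusted p = 5.6e-09). Mknk1, a kinase of the translation factor eIF4E, stood at 25.2, 25.3 and 19.6 in WT, 86.9 and 126 in the EZH2 KO clones and 13.0 and 11.1 in the SAFB DKO clones. Nrg2, a neuregulin, stood at 8.96, 11.4 and 6.79 in WT, 31.0 and 43.7 in the EZH2 KO clones and 2.42 and 2.42 in the SAFB DKO clones. The germline genes Hormad2 and Smc1b, which act on meiotic chromosomes, rose in EZH2 KO by 2.19 ± 0.26 and 2.14 ± 0.25, and in SAFB DKO their adjusted p was 0.073 and 0.97.

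**Figure D4:**
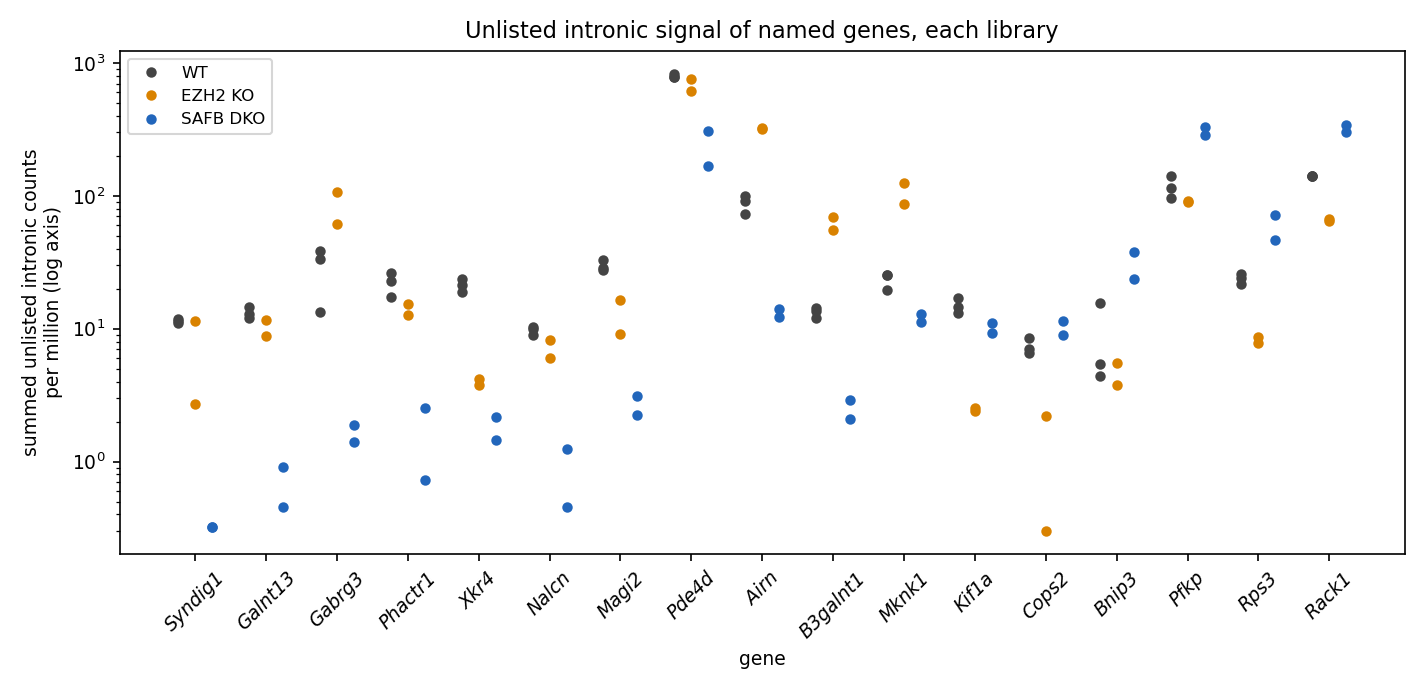
Summed CPM of the unlisted intronic features of 17 named genes (log y axis), with 1 point per library (grey WT, orange EZH2 KO, blue SAFB DKO). Syndig1 to Magi2, all long genes, lie lowest in SAFB DKO, Airn, B3galnt1 and Mknk1 lie highest in EZH2 KO, and Pfkp, Rps3 and Rack1 lie highest in SAFB DKO.

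The longest genes with 10 or more tested members were followed whatever their change. Pde4d, a cAMP phosphodiesterase with 284 members and 23 short-list peaks, stood at 832, 791 and 779 CPM in WT, 615 and 762 in the EZH2 KO clones and 168 and 305 in the SAFB DKO clones (-1.76 ± 0.21, adjusted p = 1.2e-05). In SAFB DKO 77 of its 221 tested members fell and 0 rose, and in EZH2 KO 27 fell and 1 rose. Fhit, a diadenosine triphosphate hydrolase, fell in SAFB DKO from 30.6, 37.1 and 24.1 to 15.6 and 14.1 (-1.04 ± 0.21, adjusted p = 0.0011), and Gm20388 from 83.3, 79.9 and 77.5 to 50.2 and 46.5. Fgfr2, a fibroblast growth factor receptor, was called as fallen (-0.57, adjusted p = 0.013) but not without SAFB DKO replicate 1 or 2 (adjusted p = 0.051 and 0.095). Dmd, the dystrophin gene, missed the threshold in SAFB DKO (-0.55, adjusted p = 0.060) but passed it among all-intron members alone (-0.82, adjusted p = 0.011). It fell in EZH2 KO (-0.88, adjusted p = 0.0094), with a smaller log2 fold change of -0.56 without EZH2 KO replicate 1.

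The ratio of intronic to exonic counts of a gene does not change when a whole transcript changes, and the scaling of libraries cancels in it. It could be tested in 9014 genes. In SAFB DKO it fell in 1938 (21.5%) and rose in 414 (4.59%), and in EZH2 KO it fell in 713 (7.91%) and rose in 1966 (21.8%). In SAFB DKO the median ratio change was -0.41 over all genes, -0.69 in genes with a short-list peak and -0.35 without, and in EZH2 KO it was 0.29, 0.42 and 0.26. The count of 1938 became 1063 and 1042 without WT replicate 1 or 2, and 1168 and 968 without SAFB DKO replicate 1 or 2. The count of 414 became 272 without WT replicate 1 and 241 without SAFB DKO replicate 1. For EZH2 KO the 713 became 437, 447 and 442 without each WT library, and the 1966 became 1297 without WT replicate 3.

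Among genes with a mean of 5 CPM or more in both introns and exons, the lowest ratio changes in SAFB DKO came from introns that fell beside exonic counts that were not lower. Cdkn2aipnl introns stood at 15.5, 15.1 and 10.8 CPM in WT, 44.0 and 54.9 in the EZH2 KO clones and 1.28 and 2.42 in the SAFB DKO clones, while its exons stood at 19.3, 21.8 and 22.9, at 7.82 and 15.1, and at 34.1 and 28.8. Its log2 ratio change was -3.48 in SAFB DKO (adjusted p = 2.4e-05) and 2.78 in EZH2 KO (adjusted p = 9.9e-05). Fabp3, a fatty acid-binding protein, had 79.0, 75.8 and 39.7 intronic CPM in WT, 202 and 211 in the EZH2 KO clones and 21.4 and 9.85 in the SAFB DKO clones, with no short-list peak in the gene. Eif2d, a translation initiation factor, had ratio changes of -2.92 and 1.54, and Cpne3, a copine, of -2.77 and 2.85. The highest ratio changes in SAFB DKO came instead from exons that were lower. Pwwp2a, a reader of the histone variant H2A.Z, had 20.6, 22.3 and 21.04 intronic counts in WT, 10.4 and 18.7 in the EZH2 KO clones and 36.5 and 29.3 in the SAFB DKO clones, beside 205, 225 and 207, then 403 and 438, then 78.1 and 62.1 exonic CPM. Prpf38b, a splicing factor, had 6.99, 8.0 and 7.99 intronic counts in WT and 8.12 and 5.70 in SAFB DKO, beside exonic counts of 428, 434 and 365 in WT and 76.7 and 68.1 in SAFB DKO. Tma16, Zfp982, Zmym1 and Mapk1ip1 had the same form, with ratio changes of 2.47, 2.42, 2.18 and 2.10 and no call on their introns in SAFB DKO. In EZH2 KO, Atp1b2, a sodium pump subunit, had the highest ratio change (3.75, adjusted p = 3.7e-05), with introns at 6.25, 6.96 and 3.65 in WT and 43.6 and 38.8 in EZH2 KO. The lowest was that of Klhl18 (-2.48, adjusted p = 0.0012).

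Single members at the highest levels went in several directions. The members with the highest WT level included an interval of the Taco1 gene at chr11:106066759-106066880, all intron, at 1857, 1542 and 1871 CPM in WT, 2408 and 2504 in the EZH2 KO clones and 2934 and 2805 in the SAFB DKO clones. It was called as risen in both (0.48 and 0.71), but with column totals not in EZH2 KO (0.24, adjusted p = 0.074). An interval of Dido1, a gene with a PHD finger, at chr2:180687403-180690011 held 55.8% intron and stood at 616, 589 and 477 in WT, 940 and 1000 in the EZH2 KO clones and 129 and 128 in the SAFB DKO clones. It lay in a gene without a short-list peak and was called in each comparison (0.79 and -2.12). An interval of Hnrnpu, a nuclear matrix RNA-binding protein, held 54.3% intron and fell in EZH2 KO (-0.90, adjusted p = 0.00050). Against WT it missed the threshold in the SAFB DKO clones (-0.36, adjusted p = 0.081), but it passed in the fit of SAFB DKO and WT alone (-0.37, adjusted p = 0.011), and without either EZH2 KO library or at a mean of 50 counts or more (adjusted p = 0.011 to 0.014). An interval of Gm47283 on chromosome Y at 90810714 to 90812942, next to a region with near-identical copies, stood at 611, 562 and 606 in WT and at 32.2 and 162 in EZH2 KO, and its level is uncertain. The last of them was an interval at chr9:64176902-64178509 that lay in more than 1 gene, at 861 to 1045 CPM in WT and 880 to 997 in the knockouts.

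Among members of 1 gene with a mean of 1 CPM or more, the lowest fold changes in SAFB DKO were intervals with no count in either SAFB DKO library, apart from an interval of Safb itself. For these a bound is given against 3 counts over the group. The interval of Gabrg3 at chr7:57314204-57315656 had 105, 131 and 27 counts in WT, 56 and 71 in EZH2 KO, and 0 in both SAFB DKO libraries, at least 55.8-fold lower. It lay 48546 bases from the nearest short-list peak. An interval of Ppm1h, a protein phosphatase, had 91, 65 and 36 counts in WT and 25 and 28 in EZH2 KO and was at least 41.0-fold lower in SAFB DKO. Intervals of Ctnnd2 (delta-catenin), Arnt2 (a transcription factor partner), Cdk14 (a cyclin-dependent kinase), Dab1 (the reelin adaptor) and Nxpe4 were at least 36.7-fold to 40.7-fold lower. All 7 of these genes held a short-list peak, from 1 in Arnt2 to 12 in Ctnnd2, beside 46.2% of all members of 1 gene lying in such genes. These 7 were picked by their low fold change, so the count says nothing about members at large. The Nxpe4 interval lay 720 bases from the nearest peak, and the other 6 lay 13137 to 86188 bases away. Of the 6 highest in SAFB DKO, an interval of Smtnl2, a smoothelin-like protein, stood at 1.98, 2.87 and 2.30 CPM in WT and 9.76 and 9.69 in SAFB DKO (2.03, adjusted p = 9.4e-05). An interval of Wdr61, a WD-repeat protein, stood at 1.88, 1.32 and 2.14 in WT and 5.52 and 8.02 in SAFB DKO. Of the 6, the intervals of Bnip3, Smtnl2, Wdr61 and Col9a2 held 50.3%, 59.2%, 70.1% and 76.5% intron, and the other intervals were all intron. Those of 0610040F04Rik, Pfkp and Col9a2 were past the threshold with all libraries but not without WT replicate 1 (adjusted p = 0.051, 0.13 and 0.10).

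In EZH2 KO the lowest intervals also had no count in either EZH2 KO library, and here the libraries were shallower. Gm41031 at chr13:97811745-97813422 had 117, 157 and 226 counts in WT, 0 and 0 in the EZH2 KO clones and 459 and 370 in the SAFB DKO clones, at least 35.5-fold lower in EZH2 KO. An all-intron interval of Ezh2 at chr6:47587783-47588443 had 92, 93 and 91 counts in WT, 0 in both EZH2 KO libraries, and 122 and 168 in SAFB DKO. Intervals of Rdx, an actin-membrane linker, Shisa6, an auxiliary subunit of AMPA receptors, Prtg, an immunoglobulin superfamily protein, Ube4b, a ubiquitin ligase, Ccdc85a and Sltm, a SAFB-like protein, were at least 14.9-fold to 17.8-fold lower. Of those that rose, an interval of Hormad2 stood at 0.414, 0.518 and 0.313 CPM in WT, 9.77 and 11.3 in the EZH2 KO clones and 0.274 and 0.431 in the SAFB DKO clones. An interval of Slc9b1, a sperm sodium-proton exchanger, 3256 bases from a short-list peak, stood at 3.81, 3.62 and 2.04 in WT, 37.1 and 45.8 in the EZH2 KO clones and 0.456 and 0.592 in the SAFB DKO clones. The Il31ra interval rested on EZH2 KO replicate 1, at 35.5 beside 2.99 (adjusted p = 0.35 without it), and that of Nfatc2 on replicate 2 (adjusted p = 0.15 without it) and on WT replicate 3 (adjusted p = 0.053 without it).

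Lists of genes by known role were set beside the background of 27.2% fallen and 6.19% risen genes in SAFB DKO and 16.5% and 17.6% in EZH2 KO. Long neuronal adhesion and synaptic genes, which join and organise synapses, fell in SAFB DKO in 33 of 39 tested genes and rose in 0, with a median of -2.39 against -0.29 over all genes. In EZH2 KO 9 fell and 5 rose, with a median of -0.34 against -0.04. Summed over the list, however, member CPM were higher in EZH2 KO, at 2961, 3020 and 2889 in WT and 3775 and 4734 in the EZH2 KO clones. In the SAFB DKO clones the sums were 1559 and 1734, a smaller fall than the median. Of 15 list genes with a tested intron to exon ratio, 7 fell and 0 rose in SAFB DKO, and 0 fell and 5 rose in EZH2 KO. Magi2, a synaptic scaffold, stood at 32.9, 28.7 and 27.9 CPM in WT, 16.5 and 9.12 in the EZH2 KO clones and 2.24 and 3.12 in the SAFB DKO clones. Dab1 stood at 106, 90.2 and 102 in WT, 88.2 and 109 in the EZH2 KO clones and 22.6 and 31.1 in the SAFB DKO clones, with 14 of 57 tested members fallen. Pcdh9, a protocadherin with no short-list peak, stood at 58.5, 50.1 and 78.5 in WT, 78.8 and 99.5 in the EZH2 KO clones and 9.03 and 14.3 in the SAFB DKO clones. The list's genes have a median span of 1115750 bases, 22 of its tested genes hold a short-list peak, and length cannot be told apart from role here. Under the 4 scalings 30 to 33 of its genes fell in SAFB DKO.

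Of 12 tested PRC2 genes 1 fell and 1 rose against WT in the SAFB DKO clones, and 4 fell and 2 rose in EZH2 KO. With each of the other 3 scalings 4 rose in SAFB DKO. Mtf2, a PRC2 accessory subunit, stood at 315, 354 and 254 in WT, 524 and 680 in the EZH2 KO clones and 164 and 137 in the SAFB DKO clones (0.97 and -1.03, adjusted p = 0.00045 and 0.00026). Aebp2 rose in both (0.84 and 0.53), in SAFB DKO not without SAFB DKO replicate 1 or 2 or WT replicate 2 (adjusted p = 0.089, 0.052 and 0.061), and not among all-intron members alone (0.15, adjusted p = 0.61). Of 18 PRC1 genes, which ubiquitinate histone H2A, 7 fell and 1 rose in SAFB DKO, and 2 fell and 3 rose in EZH2 KO. The 7 stayed 7 with TMM over all tested features and became 3 and 2 with column totals and DESeq2 size factors, while the 2 that fell in EZH2 KO became 7 with column totals. Bcorl1, a corepressor, stood at 6.16, 5.69 and 4.02 in WT, 16.7 and 18.6 in the EZH2 KO clones and 1.32 and 1.56 in the SAFB DKO clones.

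Nuclear RNA-binding and splicing genes split. Among nuclear-matrix RNA-binding genes and relatives of SAFB, 5 of 23 fell and 6 rose in SAFB DKO, Safb and Safb2 among those that fell, and 8 fell and 5 rose in EZH2 KO. Lmnb1, a nuclear lamin, stood at 42.2, 52.2 and 40.8 in WT, 95.6 and 123 in the EZH2 KO clones and 15.9 and 22.3 in the SAFB DKO clones, while its exons stood at 119, 131 and 129, at 54.3 and 62.4, and at 191 and 202. Of 25 SR splicing factor genes 1 fell and 3 rose against WT in the SAFB DKO clones, and 12 fell and 4 rose in EZH2 KO. With column totals or DESeq2 size factors 12 rose in SAFB DKO. Srsf1, an SR splicing factor, went from 25.4, 26.2 and 27.8 in WT to 44.8 and 41.0 in SAFB DKO (0.70 ± 0.15, adjusted p = 0.0021), with 20.1 and 21.2 in EZH2 KO (adjusted p = 0.12).

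Chromatin remodeller and methyltransferase genes were lower in EZH2 KO, where 21 of 36 fell and 0 rose, with a median of -0.59. Under the 4 scalings 21 to 32 fell, at most 1 rose, and the median was -0.84 to -0.58. In SAFB DKO 6 fell and 0 rose with a median of -0.16, but with column totals 4 fell and 8 rose with a median of 0.06. Chd7, a remodeller, stood at 49.3, 42.6 and 50.3 in WT, 28.4 and 24.1 in the EZH2 KO clones and 31.6 and 29.7 in the SAFB DKO clones, and its SAFB DKO call was lost without SAFB DKO replicate 2 (adjusted p = 0.053) and with DESeq2 size factors (adjusted p = 0.062). Of 37 DNA repair and replication genes, 7 fell and 8 rose against WT in the SAFB DKO clones, and 13 fell and 4 rose in EZH2 KO. With DESeq2 size factors the SAFB DKO counts became 2 and 14. Those that fell included Xrcc4, an end-joining factor with 11 short-list peaks, from 26.6, 25.9 and 29.8 to 10.3 and 12.5, and those that rose included the replicative helicase subunit Mcm5, from 107, 101 and 118 to 185 and 170. Mcm5 stood at 47.5 and 49.7 in EZH2 KO and fell there (-1.16 ± 0.15, adjusted p = 5.7e-05).

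Ribosomal protein and snoRNA host genes, which are short and highly transcribed, went the other way from the long genes. In SAFB DKO 9 of 15 rose and 0 fell, with a median of 0.63, and in EZH2 KO 11 fell and 0 rose, with a median of -1.10. Under the 4 scalings the medians were 0.63 to 0.88 and -1.39 to -1.10. Rack1, a ribosomal scaffold protein, stood at 142, 142 and 140 in WT, 65.2 and 66.8 in the EZH2 KO clones and 343 and 302 in the SAFB DKO clones (1.19 ± 0.13, adjusted p = 6.8e-06). Its exons moved alike, at 71.9, 72.0 and 81.4, at 37.0 and 48.3, and at 143 and 122, and its ratio of intron to exon missed the threshold in SAFB DKO (adjusted p = 0.059). The ratio could be tested in 8 genes of the list, of which 0 fell and 0 rose in SAFB DKO, and 0 fell and 1 rose in EZH2 KO. Rps3, a protein of the small ribosomal subunit, stood at 24.2, 21.6 and 25.9 in WT, 7.82 and 8.65 in the EZH2 KO clones and 72.3 and 46.7 in the SAFB DKO clones. These genes have processed copies elsewhere in the genome, among which reads can be split.

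Of 10 tested imprinted and X-inactivation noncoding RNA genes, 6 fell and 0 rose against WT in the SAFB DKO clones, and 5 fell and 2 rose in EZH2 KO. With column totals 3 of these fell, and with DESeq2 size factors 2. Airn, the transcript that silences Igf2r in cis, stood at 99.5, 91.8 and 73.0 in WT, 327 and 316 in the EZH2 KO clones and 12.2 and 14.1 in the SAFB DKO clones (1.87 ± 0.15 and -2.75 ± 0.18, adjusted p = 2.8e-06 and 2.2e-07). Its gene holds 10 short-list peaks, and 12 of its 16 tested members fell in SAFB DKO and 10 rose in EZH2 KO. Of 28 pluripotency genes 2 fell and 3 rose against WT in the SAFB DKO clones, and 5 fell and 7 rose in EZH2 KO. With column totals 1 fell and 12 rose in SAFB DKO. Tet1, a 5-methylcytosine dioxygenase, stood at 216, 225 and 202 in WT, 297 and 371 in the EZH2 KO clones and 130 and 133 in the SAFB DKO clones, and Pou5f1, the OCT4 gene, at 60.9, 61.3 and 59.1, at 19.8 and 26.9, and at 93.3 and 103. Fibroblast feeder markers had 6 tested genes, of which 1 fell in SAFB DKO and 3 in EZH2 KO. Their list summed to 50.2, 43.4 and 39.3 CPM in WT, 12.2 and 21.7 in the EZH2 KO clones and 28.6 and 31.0 in the SAFB DKO clones. Markers of primitive endoderm and differentiation had 7 tested genes, of which 3 fell in SAFB DKO, and 2 fell and 1 rose in EZH2 KO. They summed to 44.4, 38.5 and 37.2 in WT, 49.2 and 58.2 in the EZH2 KO clones and 26.1 and 24.8 in the SAFB DKO clones. Feeder sums of every knockout library were thus below WT, and second-list sums of the EZH2 KO clones above it. Neither held for the shorter marker sets, summed over all features.

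**Figure D5:**
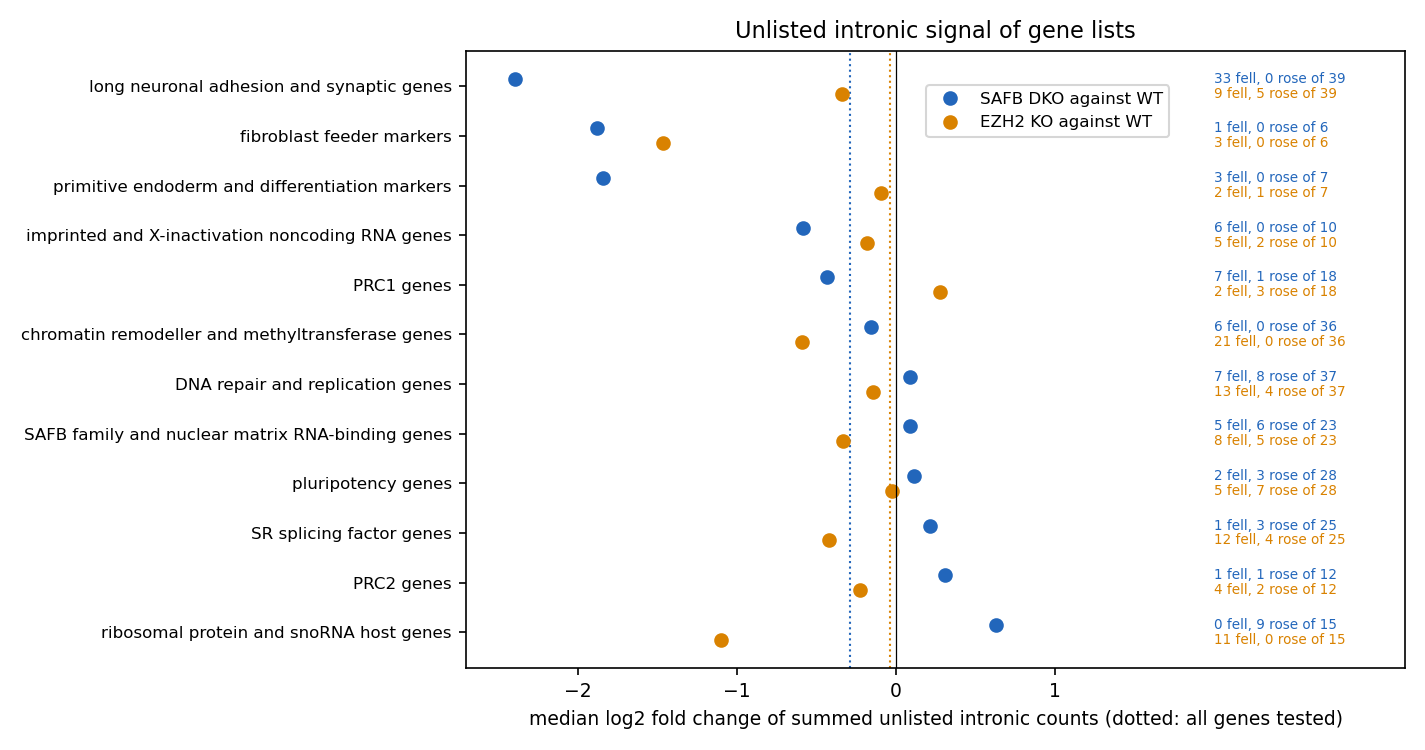
Median log2 fold change against WT of summed unlisted intronic counts (x axis) for 12 gene lists (y axis), blue for SAFB DKO and orange for EZH2 KO, with the medians of all genes tested dotted and the counts of called genes at the right. The long neuronal list lies at -2.39 in SAFB DKO, and the ribosomal and snoRNA host list at 0.63 in SAFB DKO and -1.10 in EZH2 KO.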

How the data were processed

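RIP-seq with an EZH2 antibody was analysed in 7 libraries (3 WT, 2 EZH2 KO, 2 SAFB DKO). The deposited table holds raw read counts per interval, made with featureCounts 2.0.3 with reads assigned to the reverse strand, per the file headers, on build mm10, per the submitters' processing notes. The aligner, the peak caller and the criterion of the filtered list are not given in the sources used here. Intervals come from WT data, which favours falls against WT. ERCC spike-ins were added, per the labels' protocols, and were not used here. Another 3 columns of a control antibody and 3 pooled columns were not used.

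The members and gene lists were chosen with earlier results of these data known. Intervals were assigned to classes of the GENCODE M21 basic annotation, with a minimum overlap of 1 base. Counts were fitted in R 4.3.3 with edgeR 4.0.16 (limma 3.58.1), using filterByExpr, TMM over features outside the filtered list, and the quasi-likelihood test with all 3 groups and 4 residual degrees of freedom. Benjamini-Hochberg adjustment ran over all tested features, and the threshold was an adjusted p of 0.05. Sums of member counts per gene, and ratios to the unlisted exonic counts of the gene, were fitted likewise. CPM values use the TMM-scaled library size, and shares use raw counts. Shares were compared by exact two-sided permutation over libraries. DESeq2 1.42.0, other scalings, filters, a fold threshold and leaving out each library were the alternatives. The fits were tested on simulated data.

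Features and genes were named by fixed rules: the 5 members highest in WT, the 8 lowest and 6 highest called members without overlap, the 6 lowest and 6 highest genes by sum (with 5 or more tested members) and by ratio (with a mean of 5 CPM in both), and the 5 longest genes. From each list, 2 to 4 genes of lowest adjusted p were eligible, and other list genes were chosen after their values were seen. The comparison of near and far members and the printed sequences were also chosen after the values were seen.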

Additional observations from a re-analysis of the deposited data

How the results depend on the processing

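The 8619 members that fell in SAFB DKO became 4302 at a mean of 50 counts or more and 5496 to 13438 without 1 library. The 908 that rose became 1371 with TMM over all tested features, 2548 with column totals, 2608 with DESeq2 size factors, 2306 with DESeq2's own test, 131 against a fold of 1.5, 2938 with only both groups in the fit, 123 among all-intron members, and 224 to 2779 without 1 library. In EZH2 KO the 5529 that fell became 9948 with column totals, 1789 at a mean of 50 counts, 2532 against a fold of 1.5, 3126 among all-intron members, and 1538 to 14938 without 1 library, and the 4849 that rose became 2322 against that fold and 2202 to 5689 without 1 library. Between the knockouts 25229 calls became 8820 at a mean of 50 counts and 13479 in a fit of those groups alone. By gene, the 689 sums that rose in SAFB DKO became 1713 with column totals, 1745 with DESeq2 size factors, 1769 with DESeq2's test, 71 from all-intron members, and 230 to 1199 without 1 library. The 1838 that fell in EZH2 KO became 3037 with column totals, 787 from all-intron members, and 1191 to 2894 without 1 library. Changed ratios ranged without 1 library from 968 to 2897 (fell) and 241 to 586 (rose) in SAFB DKO, and from 437 to 1064 and 1297 to 2224 in EZH2 KO.

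Median log2 differences kept their sign in SAFB DKO. Introns minus coding exons, -0.52, became -0.27 at a mean of 50 counts, -0.78 with no filter beyond 1 count, -0.67 for all-intron members, and -0.64 to -0.48 without 1 library. Genes of 100 kb and more minus genes under 30 kb, -0.41, became -0.77, -0.58 and -0.21 under the same settings, -0.63 with a median per gene first, and -0.60 to -0.39 without 1 library. Genes with minus without a short-list peak, -0.42, became -0.97, -0.51, -0.37, -0.56 and -0.56 to -0.41. For EZH2 KO the first difference, 0.45, became 0.53, 0.10, 0.54 and 0.28 to 0.51. The length difference, 0.02, became 0.55, turned to -0.44 and -0.18, was 0.17 per gene, and ran from -0.50 to 0.075. The peak difference, 0.19, became 0.65, turned to -0.14, was 0.13 for all-intron members, 0.22 for any filtered peak and 0.29 per gene, and ran from -0.013 to 0.23. Folds of shares moved for all-intron members. In SAFB DKO the total share became 0.833 (0.865 over unlisted counts), introns over exons 0.694, genes of 100 kb and more 0.868, genes with a peak 0.804 (0.775 for any filtered peak) and near over far 0.474. The same folds in EZH2 KO were 1.08 (1.12), 1.34, 0.990, 1.05 and 1.35, so the total share and the share of long genes turned. Without 1 library the SAFB DKO folds ran from 0.751 to 0.803 for long genes and 0.712 to 0.758 for genes with a peak, and the EZH2 KO fold of near over far from 1.27 to 1.33. The cause of these shifts was not tested.

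Replicate numbers are shared by WT and EZH2 KO libraries 1 and 2, but libraries with the same number did not deviate together (r = 0.0317 and 0.0042). With the replicate block, 1591 members fell and 2896 rose in EZH2 KO, 1184 gene sums fell, 466 ratios fell and 1132 rose, and the median differences were 0.39 for introns minus exons, -0.022 for length and 0.16 for peaks. No paired analysis was possible for SAFB DKO because both of its labels carry the same number. Of the named features and genes, Pcgf2 and Sltm sums turned in EZH2 KO for all-intron members, to 0.80 and -0.74. Depth limits EZH2 KO most, where 7411 tested members had no count.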
